A study of Rattus norvegicus with 20 samples.

Results

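Lung RNA of rats with and without electrical stimulation of the right cervical vagus nerve (VNS, on the neck course of the nerve) was compared over both operations of a crossed design, with all 10 stimulated rats on one side and all 10 unstimulated rats on the other. The 20 libraries entered by their group labels, all of the 20 in the series, and the operation was kept as an additive factor, so that the stimulation difference was taken within each operation. The genes looked for were those called by this comparison with differences of 1 sign in sham-operated and in injured animals. Of 14794 genes tested, 0 met that rule (0% of genes called). What follows therefore describes the size, direction and spread of differences that did not pass the test.

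The 4 groups held 5 rats each. Sham animals had the abdomen opened and the caecum handled but left intact. CLP animals had caecal ligation and puncture, an operation that spills gut bacteria into the abdomen and is labelled here as a model of acute respiratory distress syndrome. Sham+VNS and CLP+VNS animals had the same operations together with VNS. All animals thus had abdominal surgery, and no group was left without it. The strain, sex and age of the rats, the stimulation settings, the time of tissue collection, and whether unstimulated rats also had the nerve exposed in the neck are not stated in the labels. The stimulation difference and that of any neck surgery or handling that came with it cannot be told apart. Nothing states which animals, if any, shared a litter or a day, so p-values measure the spread between these samples.

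The vagus nerve carries sensory fibres from the lung and gut to the brainstem and motor fibres back to the airways, heart and abdominal organs. Its stimulation is known for the cholinergic anti-inflammatory reflex, in which vagal and splenic nerve signals reach noradrenaline-responsive T cells that release acetylcholine, and acetylcholine acts on macrophages through the alpha7 nicotinic receptor to lower the release of cytokines such as tumour necrosis factor. In the lung itself, vagal acetylcholine contracts airway smooth muscle and drives gland secretion through muscarinic receptors.

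Library totals lay between 13729654 and 14453188 estimated counts, and normalisation factors between 0.977 and 1.038. Operation divided the samples far more than stimulation: 39.8% of the total variance in log2 level over all tested genes lay between operations and 5.11% between stimulated and unstimulated animals. All 8 markers of lung identity, among them the surfactant protein genes and Ager, were present in every group. Sham replicate 1 stood apart once the operation was taken out, at -42.1 on a first component where the other 19 libraries ran from -6.48 to 11.7. Its summed level of adipose markers was 3190.1 CPM (counts scaled to the same library total) against 589 to 1311 in the other 19 libraries, of cardiac muscle markers 241 against 25.3 to 93.0, of nerve and glia markers 891 against 319 to 498, and of mesothelium markers 1726 against 572 to 1153. Its summed level of lung identity markers was the lowest of all, at 23609 CPM against 32891 to 41956. The same held for alveolar type 2 (36044.5 against 39806.5 to 57608), secretory airway (3342 against 3854 to 9284) and ciliated airway markers (525 against 535 to 913). This library sits on the unstimulated side, so several of the lists that it moved are given with and without it.

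Over both operations, the fitted differences between stimulated and unstimulated lungs were small, and no single gene stood clear of the spread between animals. The smallest adjusted p was 0.166 (edgeR's quasi-likelihood test, Benjamini-Hochberg adjustment over 14794 genes, called below 0.05). An unadjusted p below 0.05 was reached by 2003 genes, which is 13.5% of those tested, 999 of them higher (6.75%) and 1004 lower (6.79%) with stimulation. If p-values were spread evenly, each bin of 0.05 would hold 739.7 genes. Genes are not independent of each other, so the 2003 are not a count of genes changed by stimulation. With the replicate number as a block, 1251 genes lay below 0.05. By the other tools run on the same additive design, limma-voom called 0 genes and DESeq2 called 55, 28 higher and 27 lower, and the 55 included all 24 genes that are named here by the smallest p in each direction. The calls therefore depend on the tool. By edgeR the count was 3 without Sham replicate 3 (Marchf6, Unc119 and Cxcl16), 4 without Sham+VNS replicate 4 (Fam126a, Dgki, Tmtc1 and B3galnt1), 2 without CLP+VNS replicate 1 (Fxyd5 and Sox7), and 0 without any other single library.

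**Figure D1:**
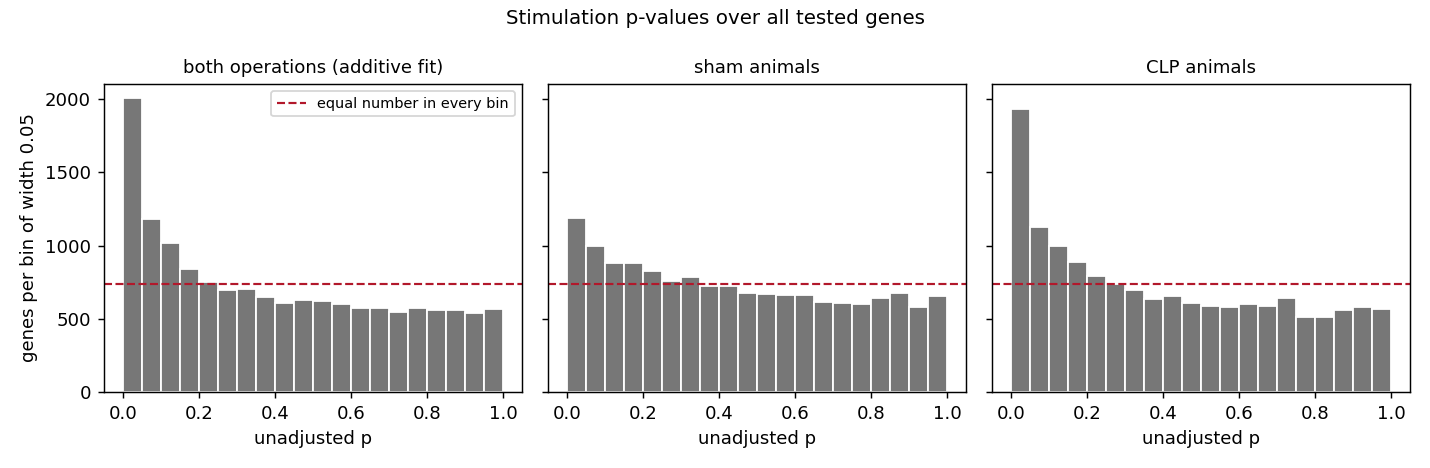
Histograms of the unadjusted p of the stimulation difference over 14794 tested genes (x axis, bins of width 0.05; y axis, number of genes per bin) for the additive fit over both operations, the sham animals and the CLP animals. The dashed line marks 739.7 genes, an equal number in every bin; the first bin holds 2003 genes in the additive fit, 1185 in sham animals and 1927 in CLP animals.

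The differences were also narrow. The median absolute log2 difference was 0.07. The 95% interval of the difference stayed within a factor of 2, that is within 1 on the log2 scale in either direction, for 14064 genes (95.1%). A difference of at least 1.5-fold either way was fitted for 344 genes (2.33%) and one of at least 2-fold for 71 (0.48%). For most of the expressed lung transcriptome, a change of 2-fold or more that was shared by both operations would thus lie outside the interval.

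Stimulation gave differences of 1 sign in both operations for 8207 genes, 55.5% of those tested, 4041 of them higher (27.3%) and 4166 lower (28.2%). The sham and CLP differences share no library. Across genes, which are not independent replicates, they correlated with Pearson's r = 0.156 and a Spearman rank correlation of 0.158, a weak relation. An unadjusted p below 0.05 in each operation was reached with 1 sign by 115 genes (0.777%), 63 higher (0.426%) and 52 lower (0.351%), and with opposite signs by 41 genes (0.277%). The number of such 1-sign genes ranged from 70 to 161 when single libraries were left out, and was 70 without Sham+VNS replicate 1 and also without CLP+VNS replicate 3. The number of genes with opposite signs was 67 without Sham replicate 3 or CLP+VNS replicate 1, 64 without CLP replicate 3, and 27 without Sham replicate 5 or CLP replicate 6. Stimulated and unstimulated libraries did not overlap for 118 genes in sham animals (0.798%) and for 334 in CLP animals (2.26%), and for 0 genes in both operations at once (0%).

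**Figure D2:**
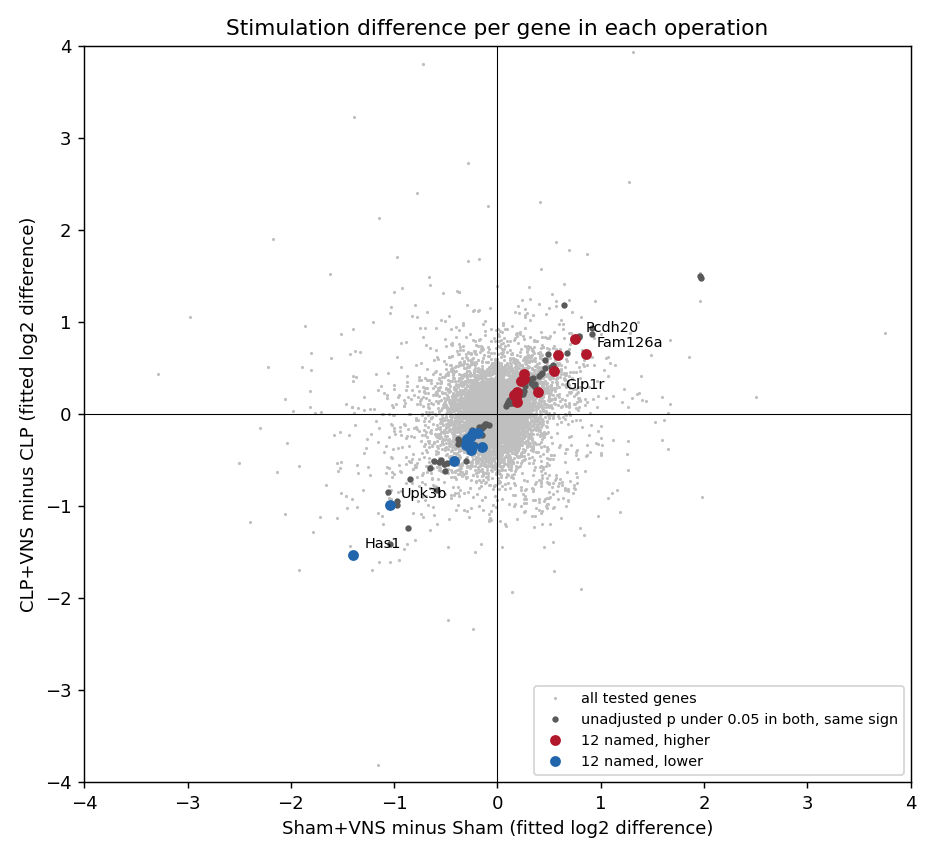
Fitted log2 difference of stimulation in sham animals (x axis, Sham+VNS minus Sham) against that in CLP animals (y axis, CLP+VNS minus CLP), 1 point per tested gene; dark points are the 115 genes with an unadjusted p below 0.05 and 1 sign in both operations, and coloured points the 12 named genes of each direction. The cloud is nearly round, with r = 0.156; 3 genes lie beyond the axes. Dark and coloured points fall in the lower left and upper right because they were picked that way.

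The 24 genes named here were the 12 of each sign with the smallest main-effect p among those with an unadjusted p below 0.05 and 1 sign in both operations, and a mean of at least 1 CPM. Their sign agreement and small p follow from that choice and are a description, not a test. Their adjusted p ran from 0.166 to 0.220. The differences ran from 0.16 to 0.79 among the 12 higher genes and from -1.47 to -0.20 among the 12 lower ones, and 19 of the 24 lay within 1.5-fold. In CLP animals the stimulated and unstimulated libraries of 8 of the 12 higher and 3 of the 12 lower genes did not overlap. In sham animals those of 0 and 3 did not. Over all genes the shares were 2.26% in CLP and 0.798% in sham animals, but the choice by small p favours genes without overlap.

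B4galnt2, a glycosyltransferase that builds a blood-group-like sugar on epithelial surfaces, measured 10.3, 12.4, 13.3, 13.5 and 13.7 CPM in the 5 Sham libraries and 16.1, 15.8, 16.1, 14.3 and 13.1 CPM in Sham+VNS. In CLP it measured 12.7, 14.0, 13.9, 12.3 and 13.5 CPM, and in CLP+VNS 16.2, 18.9, 20.0, 15.8 and 18.7 CPM. The CLP+VNS libraries all lay above the CLP libraries, and in sham animals 1 stimulated library lay within the unstimulated range. The difference over both operations was 0.34 ± 0.06 on the log2 scale, a ratio of 1.27 (95% interval of the log2 difference 0.21 to 0.48, adjusted p = 0.166, edgeR).

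Fam126a, whose product hyccin belongs to the complex that makes phosphatidylinositol 4-phosphate at the plasma membrane, measured 7.83, 9.51, 12.1, 6.90 and 7.67 CPM in Sham and 19.1, 22.3, 13.6, 8.92 and 15.7 CPM in Sham+VNS. In CLP the values were 23.2, 24.3, 21.7, 14.4 and 21.8 CPM and in CLP+VNS 29.5, 42.0, 26.3, 35.4 and 32.2 CPM. The groups overlapped in sham animals through Sham+VNS replicate 4 and did not overlap in CLP animals. The log2 difference was 0.75 ± 0.14 (adjusted p = 0.166, edgeR), on top of a higher level in CLP-operated than sham-operated animals (1.15).

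Glp1r, the receptor for the incretin hormone GLP-1, which the lung expresses at a high level (mean 71.3 TPM here), measured 67.2, 131, 103, 102 and 119.9 CPM in Sham and 181, 179, 112, 129 and 163 CPM in Sham+VNS. Its CLP values were 127, 135, 124, 104 and 138 CPM and its CLP+VNS values 126, 168, 178, 179.7 and 217 CPM. The groups overlapped in both operations: 1 CLP+VNS library, replicate 1, lay among the CLP libraries. The log2 difference was 0.51 ± 0.12 (adjusted p = 0.213, edgeR). Leaving out CLP+VNS replicate 1 gave 0.55 and leaving out Sham replicate 1, the lowest Sham library, 0.44.

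Prnp, the cellular prion protein, measured 308, 374, 311, 297 and 344 CPM in CLP and 384, 394, 389, 375 and 389 CPM in CLP+VNS, where the 5 libraries lay close together and above all CLP libraries. In Sham it measured 239, 249, 258, 239 and 217 CPM and in Sham+VNS 300.5, 258, 287, 249.9 and 273 CPM. The difference of 0.21 ± 0.04 was small beside that between operations (0.47, CLP against sham); the operation was called for 48.3% of all genes.

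The other higher genes were Dgki, a diacylglycerol kinase, at 0.61 ± 0.13; Marchf6, a ubiquitin ligase of the endoplasmic reticulum, at 0.19 ± 0.04; and Mlxip, the glucose-responsive transcription factor MondoA, at 0.16 ± 0.03. Tmtc1, which attaches mannose to cadherins, stood at 0.29 ± 0.07, and the protocadherin Pcdh20 at 0.79 ± 0.19. Hes1, a repressor that Notch signalling induces, stood at 0.31 ± 0.08, the Groucho-type corepressor Tle1 at 0.32 ± 0.08 and Ccdc149 at 0.19 ± 0.04. Hes1 had group means of 35.6 ± 5.48 CPM in Sham, 46.6 ± 5.55 in Sham+VNS, 34.0 ± 5.12 in CLP and 40.2 ± 2.36 in CLP+VNS (mean ± SD, n = 5). For Dgki the corresponding means were 8.67 ± 1.65, 13.0 ± 4.30, 13.6 ± 2.56 and 21.3 ± 2.79 CPM. Their deposited gene identifiers are 688155 (B4galnt2), 499975 (Fam126a), 24686 (Prnp), 688705 (Dgki), 294862 (Marchf6), 688939 (Ccdc149), 304479 (Mlxip), 362465 (Tmtc1), 25051 (Glp1r), 362533 (Tle1), 306081 (Pcdh20) and 29577 (Hes1).

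Among the lower genes, Cxcl16, a chemokine that also exists as a membrane-bound scavenger receptor, measured 119, 116, 114, 134 and 128 CPM in CLP and 86.1, 101, 98.6, 96.5 and 96.1 CPM in CLP+VNS, with no overlap. In Sham it measured 107, 119, 92.3, 98.8 and 103 CPM and in Sham+VNS 89.2, 94.3, 99.0, 91.4 and 96.3 CPM, and these groups overlapped. The log2 difference over both operations was -0.25 ± 0.05 (adjusted p = 0.166, edgeR), -0.15 in sham and -0.35 in CLP animals. Cxcl16 was the only one of the 24 with an unadjusted interaction p below 0.05 (0.0301, adjusted 0.564, edgeR), so the differences of the 2 operations were not told apart by the test.

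Arhgdib, an inhibitor of small GTPases found mainly in blood cells, measured 234, 236, 249, 289.6 and 257 CPM in Sham and 205, 181, 208, 220.1 and 219.7 CPM in Sham+VNS, without overlap. In CLP it measured 236, 234, 229, 266 and 244 CPM and in CLP+VNS 235, 171, 184, 191 and 218 CPM, where CLP+VNS replicate 1 lay within the CLP range. The log2 difference was -0.28 ± 0.06 (adjusted p = 0.166, edgeR), -0.29 in sham and -0.27 in CLP animals. Arhgdib was thus nearly the same in size in both operations.

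Cfp, properdin, the plasma protein that stabilises the alternative complement convertase, measured 34.9, 31.8, 30.2, 33.8 and 31.2 CPM in Sham and 25.7, 23.9, 25.3, 30.2 and 30.9 CPM in Sham+VNS. In CLP it measured 58.7, 65.5, 61.3, 61.8 and 54.1 CPM and in CLP+VNS 56.7, 42.5, 37.8, 44.0 and 49.7 CPM. CLP+VNS replicate 1 lay within the CLP range, and Sham+VNS replicate 5 within the Sham range. The difference was -0.32 ± 0.07 (adjusted p = 0.184, edgeR), against a rise of 0.83 with CLP.

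Irf5, a transcription factor that acts downstream of Toll-like receptors in myeloid and B cells, measured 20.7, 21.5, 17.9, 21.9 and 23.6 CPM in Sham, 15.1, 20.0, 15.2, 18.1 and 17.5 in Sham+VNS, 20.3, 24.1, 22.8, 24.3 and 20.1 in CLP and 18.3, 16.2, 16.1, 21.0 and 20.2 in CLP+VNS. The groups overlapped in both operations and the difference was -0.29 ± 0.07. Unc119, a chaperone of lipid-modified signalling proteins, did not overlap in CLP animals, with 15.1, 14.1, 13.9, 14.3 and 12.6 CPM in CLP and 10.5, 10.8, 11.0, 10.9 and 12.2 CPM in CLP+VNS. Its difference was -0.32 ± 0.06 over both operations. Has1, a hyaluronan synthase, had the widest difference of the 24, -1.47 ± 0.34, and group means of 2.25 ± 1.35 CPM in Sham, 0.851 ± 0.330 in Sham+VNS, 5.27 ± 3.02 in CLP and 1.82 ± 1.14 in CLP+VNS (mean ± SD, n = 5), with overlap in both operations.

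The remaining lower genes were Nrp2, a receptor for semaphorins and vascular growth factors, at -0.20 ± 0.04; Emp3, a membrane protein, at -0.25 ± 0.06; and Fxyd5, a regulator of the sodium pump, at -0.22 ± 0.05. S1pr5, a sphingosine 1-phosphate receptor of natural killer cells, stood at -0.46 ± 0.11 and Gramd4 at -0.30 ± 0.07. Upk3b is given with the mesothelium. Fxyd5 and Gramd4 did not overlap between groups in sham animals, with means of 42.3 ± 2.98 and 36.0 ± 2.36 CPM for Fxyd5 in Sham and Sham+VNS. The deposited identifiers are 497942 (Cxcl16), 362456 (Arhgdib), 29402 (Unc119), 299314 (Cfp), 81527 (Nrp2), 81505 (Emp3), 60338 (Fxyd5), 282821 (Has1), 296953 (Irf5), 360790 (Upk3b), 315203 (Gramd4) and 60399 (S1pr5).

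**Figure D3:**
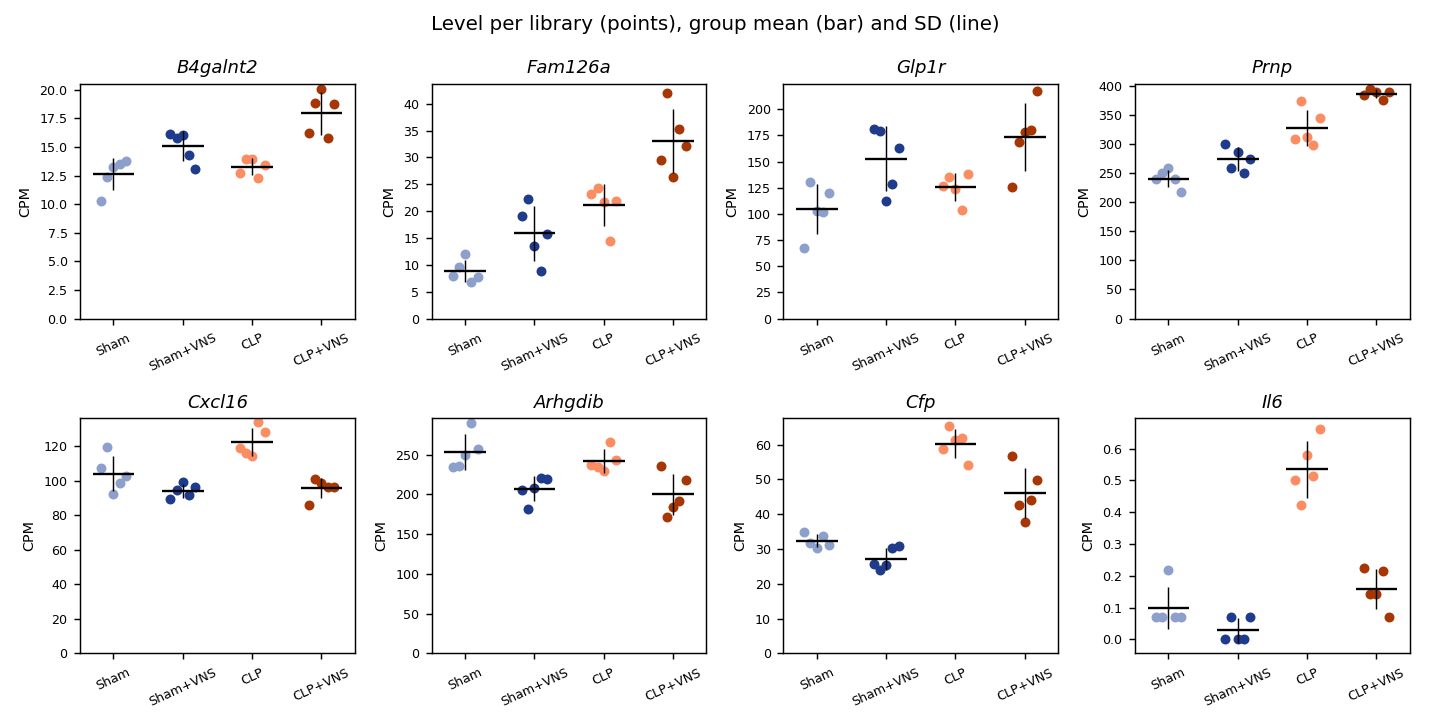
Level (y axis, CPM) of 7 genes named by the smallest main-effect p, and of Il6, in each of the 20 libraries (points) by group (x axis), with the group mean (horizontal bar) and SD (vertical line), n = 5. In CLP animals B4galnt2, Fam126a, Prnp, Cxcl16 and Il6 do not overlap between stimulated and unstimulated libraries; in sham animals only Arhgdib of the 8 does not overlap.

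Il6, the interleukin that drives the acute phase response, was too low for the model and was compared by an exact test of its CPM. Its counts were 1, 1, 3, 1 and 1 in the Sham libraries and 0, 1, 0, 0 and 1 in Sham+VNS. In CLP they were 7, 6, 8, 7 and 9, and in CLP+VNS 3, 2, 2, 3 and 1. All CLP libraries lay above all CLP+VNS libraries, and in sham animals the groups overlapped at 1 count. Stimulated libraries held 13 counts in sum and unstimulated ones 44, a ratio of 0.295 (95% Clopper-Pearson interval 0.146 to 0.559, which covers counting error only). The mean difference was -0.224 CPM, with p = 0.000252 in an exact two-sided permutation of the stimulation labels within operations. It did not pass adjustment over the 2950 genes too low for the model (adjusted p = 0.356, exact permutation), of which 0 were called (0%) and 171 had an unadjusted p below 0.05 (5.8%), 115 of them lower (3.9%).

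Other cytokines of the reflex had smaller relative differences, and none of them was compared with Il6 by a test. Il10, an anti-inflammatory cytokine, held 44 counts in stimulated and 45 in unstimulated libraries (exact permutation p = 0.906). Tnf, the cytokine by which the reflex was first measured, had means of 1.87 ± 0.175 CPM in Sham, 1.84 ± 0.771 in Sham+VNS, 12.5 ± 1.16 in CLP and 11.4 ± 4.42 in CLP+VNS (mean ± SD, n = 5). Its difference was -0.09 ± 0.17 (95% interval -0.44 to 0.26) and that of Il1b, the pyrogenic interleukin 1 beta, -0.22 ± 0.15 (-0.54 to 0.10), so a lowering of either transcript by a factor of 2 over both operations lay outside the interval. Hmgb1, a nuclear protein released as a late mediator of sepsis, stood at 0.08 ± 0.03.

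In the cytokine and chemokine list, 5 of 24 tested members were lower and 2 higher at an unadjusted p below 0.05, against 6.79% and 6.75% of all genes, and the median difference was -0.13 beside 0.00 over all genes. Without CLP+VNS replicate 1, 3 of 25 were lower. The eosinophil chemoattractant Ccl11 stood at -0.72 ± 0.23, while the neutrophil chemoattractant Cxcl3 stood at 0.34 ± 0.12. Of 29 genes of NF-kappaB and Toll-like receptor signalling, 25 had negative differences in the additive fit, against 7595 of all 14794 genes. Only 13 were lower in both operations, against 28.2% of all genes. At an unadjusted p below 0.05, 9 of the 29 were lower and 0 higher, and the median was -0.11. That median was -0.00 in sham and -0.20 in CLP animals. Tnfaip3, the ubiquitin-editing enzyme A20 that restrains NF-kappaB, stood at -0.22 ± 0.06 and near that value in each operation (-0.22 and -0.22), Irak3, an inhibitor of Toll-like receptor signalling, at -0.35 ± 0.11, and the NF-kappaB subunits Rel and Relb at -0.18 ± 0.07 and -0.20 ± 0.08. Nfkbia, the inhibitor IkappaB alpha, had differences of opposite sign, -0.47 in sham and 0.13 in CLP animals (edgeR interaction adjusted p = 0.512, unadjusted 0.00901). None of these genes was called.

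Of the cholinergic list, which holds nicotinic and muscarinic receptors, the enzymes of acetylcholine and the kinase and transcription factor downstream of the alpha7 receptor, 23 of 25 members were in the table and 10 were tested. An unadjusted p below 0.05 was reached by 0 of the 10, and 0 were called (edgeR), against 13.5% and 0% of all genes. Chrna7, the alpha7 nicotinic receptor, measured 0.212, 0.629, 0.653, 0.493 and 0.622 CPM in Sham, 0.352, 1.18, 0.618, 0.50 and 0.563 in Sham+VNS, 1.14, 2.68, 2.68, 1.98 and 0.956 in CLP and 1.57, 2.65, 1.95, 3.85 and 2.18 in CLP+VNS. The groups overlapped in both operations, with a difference of 0.34 ± 0.25 (95% interval -0.18 to 0.87) beside one of 1.88 between operations. Chat, the enzyme that makes acetylcholine, had a count in 6 of 20 libraries. The degrading enzymes Ache and Bche stood at -0.12 ± 0.19 and 0.24 ± 0.24, Jak2 at -0.14 ± 0.08 and Stat3 at -0.04 ± 0.05, the last with a 95% interval of -0.13 to 0.06. Of the other members too low for the model, none of the 9 compared by the exact permutation test had a p below 0.05.

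In the adrenergic and neuropeptide list, 3 of 20 tested members were higher and 2 lower at an unadjusted p below 0.05. The shares over all genes were 6.75% and 6.79%. Slc6a2, the noradrenaline transporter that lung endothelium also carries, measured 30.1, 33.6, 31.9, 28.4 and 56.4 CPM in Sham and 105, 52.9, 64.6, 67.6 and 61.9 CPM in Sham+VNS. Its CLP values were 113, 111, 116, 73.9 and 123 CPM and its CLP+VNS values 122, 107, 115, 88.3 and 134 CPM. The difference over both operations was 0.51 ± 0.17, but it stood at 0.97 in sham and 0.08 in CLP animals (edgeR interaction adjusted p = 0.512, unadjusted 0.00513), and the sham groups overlapped through Sham replicate 5. Calca, which encodes calcitonin gene-related peptide, was highest of all in 1 library, Sham+VNS replicate 2; it measured 0.0706, 0.210, 0.0726, 0.422 and 1.73 CPM in Sham, 0.492, 4.94, 0.137, 0.0714 and 0.493 in Sham+VNS, 0.0715, 1.70, 0.0724, 0.220 and 0.147 in CLP and 0.0746, 4.16, 3.03, 1.85 and 3.86 in CLP+VNS. Its difference was 1.92 ± 0.76, with overlap in both operations. The substance P receptor Tacr1 stood at -1.11 ± 0.48 and the receptor subunit Ramp1 at -0.29 ± 0.10.

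White blood cell lists differed in how many members had lower values with stimulation. In bulk tissue, fewer cells of a type and less RNA per cell cannot be told apart. All 21 tested neutrophil genes had negative differences in the additive fit (median -0.34, -0.10 in sham and -0.54 in CLP animals), as did 7595 of all 14794 genes. Of the 21, 12 were lower in both operations, against 28.2% of all genes. An unadjusted p below 0.05 was reached by 4, against 6.79% of all genes. Among them were the oxidase subunit Ncf1 (-0.25 ± 0.08), the integrin Itgam (-0.53 ± 0.17) and the formyl peptide receptor Fpr2 (-0.51 ± 0.22). The summed level of the list lay at 4801 to 6846 CPM in CLP and at 2344 to 6286 CPM in CLP+VNS, ranges that overlap. In sham animals it lay at 602 to 1296 CPM in Sham and at 501 to 1023 CPM in Sham+VNS. The sham means were 862 and 869.8 CPM, so the sum was not lower with stimulation there.

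In the monocyte and macrophage list 4 of 20 were lower at that level, against 6.79% of all genes (median -0.14, -0.13 in sham and -0.21 in CLP animals). Adgre1, the macrophage surface protein F4/80, measured 17.5, 12.1, 6.97, 12.4 and 15.9 CPM in Sham, 8.79, 8.77, 5.08, 9.85 and 8.73 in Sham+VNS, 79.6, 47.3, 90.0, 84.5 and 84.9 in CLP and 35.5, 76.1, 54.3, 44.3 and 47.8 in CLP+VNS, with overlap in both operations and a difference of -0.61 ± 0.16. Ccr2, the monocyte chemokine receptor, stood at -0.36 ± 0.15 and the lysosomal protein Cd68 at -0.28 ± 0.12. Of genes of dendritic cells and antigen presentation by MHC class II, 6 of 17 were lower (median -0.22, -0.03 in sham and -0.26 in CLP animals), with Ciita, the master regulator of class II genes, at -0.23 ± 0.08, the invariant chain Cd74 at -0.21 ± 0.08 and the class II chain RT1-Db1 at -0.29 ± 0.10. Reads can be shared among the RT1 genes.

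B and plasma cell genes had 6 of 17 members lower at an unadjusted p below 0.05, against 6.79% of all genes. Their median was -0.33, with -0.31 in sham and -0.35 in CLP animals. Mzb1, a chaperone of antibody-secreting cells, stood at -0.70 ± 0.25, the plasma cell receptor Tnfrsf17 at -0.79 ± 0.32, and the B cell proteins Ms4a1 (CD20) and Cd22 at -0.56 ± 0.23 and -0.32 ± 0.12. T cell and natural killer lists had 0 of 20 and 0 of 14 members with an unadjusted p below 0.05 (edgeR), with medians of -0.05 and -0.15. As in the neutrophil list, all 14 natural killer genes had negative differences in the additive fit, against 7595 of all 14794 genes. Of these, 10 were lower in both operations, against 28.2% of all genes. Of the 20 T cell genes, 14 had negative differences and 6 were lower in both operations. The T cell median was -0.16 in sham and 0.13 in CLP animals, and the natural killer median -0.23 and -0.04. Alveolar macrophage genes had 0 of 12 (edgeR), with a median of 0.02 in sham and -0.43 in CLP animals. Without CLP+VNS replicate 1, 4 of the 12 were lower, against 8.24% of all genes.

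Complement genes had 7 of 22 members lower and 0 higher at an unadjusted p below 0.05, with a median of -0.20. Besides properdin, C4a stood at -0.57 ± 0.17 and the C1 proteases C1s and C1r, which start the classical pathway, at -0.59 ± 0.21 and -0.37 ± 0.15. Without Sham replicate 1 the count was 4 of 22 and the median -0.12. In the acute phase and host defence list 4 of 22 were lower and 1 higher, or 2 higher without Sham replicate 1. Over all genes, 6.79% were lower and 6.75% higher at that level.

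Airway epithelial genes leaned the other way. Of 15 tested genes of ciliated cells, which move mucus out of the lung, 9 were higher and 0 lower at an unadjusted p below 0.05, against 6.75% and 6.79% of all genes, and 14 were higher in both operations (27.3% of all genes). The median difference was 0.44, 0.34 in sham and 0.38 in CLP animals. Tekt1, a filament protein of the cilium, measured 5.65, 5.94, 5.95, 9.36 and 10.2 CPM in Sham, 8.79, 15.3, 9.81, 7.07 and 9.93 in Sham+VNS, 6.00, 9.18, 6.01, 7.47 and 7.72 in CLP and 9.77, 15.5, 9.23, 10.8 and 9.48 in CLP+VNS, and its groups overlapped in sham animals. In CLP animals the highest CLP library, replicate 3, lay just below the lowest CLP+VNS library. Tekt1 stood at 0.52 ± 0.15 (adjusted p = 0.237, edgeR), the microtubule protein Tppp3 at 0.25 ± 0.07, Tekt4 at 0.51 ± 0.21 and the radial spoke protein Rsph1 at 0.46 ± 0.20. Without Sham replicate 1 the count was 3 of 15, and the median was 0.36.

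Secretory airway genes had 5 of 9 members higher at that level, against 6.75% of all genes, and a median of 0.67. Without Sham replicate 1 they had 4 of 9, against 5.6% of all genes, and a median of 0.57. All 9 had positive differences, and 7 were higher in both operations (27.3% of all genes). Muc5b, the main mucin of airway glands and clearance, measured 4.66, 3.29, 6.46, 4.71 and 5.25 CPM in Sham, 6.26, 17.9, 5.90, 6.07 and 9.79 in Sham+VNS, 5.50, 6.43, 9.20, 6.82 and 5.73 in CLP and 4.70, 22.2, 8.44, 7.91 and 8.43 in CLP+VNS. The highest values were those of Sham+VNS replicate 2 and CLP+VNS replicate 3, and the groups overlapped in both operations. Muc5b stood at 0.76 ± 0.25, the club cell secretoglobins Scgb1a1 and Scgb3a2 at 0.37 ± 0.14 and 0.67 ± 0.26, and Spdef, a transcription factor of mucous cells, at 0.22 ± 0.10. The summed level of the secretory list ran over 3342 to 7005 CPM in Sham against 4822 to 8292 CPM in stimulated sham animals, and 4286 to 6318 CPM in CLP against 5092 to 9284 CPM in stimulated CLP animals. How much airway each lung sample held was not measured, and its part in these values was not tested.

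By contrast, the lists of alveolar type 1 and type 2 cells and of surfactant lipid synthesis had 0, 1 and 0 of 16, 16 and 20 members higher and 0 lower at an unadjusted p below 0.05 (edgeR). Their medians were 0.01, -0.00 and 0.01. Sftpd, a surfactant collectin, was the single member at 0.30 ± 0.11. Alveolar fluid transport, the sodium and water channels that keep airspaces dry, had 0 of 16. Over all genes, 6.75% were higher and 6.79% lower at that level.

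Endothelial genes had 10 of 22 members higher and 3 lower at an unadjusted p below 0.05, against 6.75% and 6.79% of all genes. The median was 0.15, with 0.01 in sham and 0.28 in CLP animals. Those of smallest p were the angiopoietin receptor Tek at 0.29 ± 0.09, the junction protein Pecam1 at 0.24 ± 0.08, and the transcription factors Sox17 and Erg at 0.21 ± 0.07 and 0.21 ± 0.08. The 3 lower members were the selectins Sele (-0.59 ± 0.24) and Selp (-0.35 ± 0.14), which activated endothelium shows to leukocytes, and Apln, the peptide apelin (-0.27 ± 0.11). Without Sham replicate 1 the count was 6 of 22 higher and 3 lower. Of 18 coagulation and fibrinolysis genes 2 were higher and 0 lower; these were the endothelial thrombomodulin Thbd at 0.26 ± 0.09, and Proc, the protein C that thrombomodulin helps to activate, at 0.81 ± 0.22. Barrier junction genes had 5 of 24 higher and 0 lower, with Cldn4 and Cldn1, epithelial claudins, at 0.44 ± 0.16 and 0.40 ± 0.15. Genes of red cells had 3 of 12 higher, the haemoglobin genes Hbb (0.50 ± 0.17), Hba-a2 (0.38 ± 0.17) and Hba-a1 (0.38 ± 0.18), whose reads can be shared. Their summed list level ran over 2923 to 5677 CPM in Sham against 3671 to 6889 CPM in stimulated sham animals, and 2790.4 to 5322 CPM in CLP against 4648 to 9599 CPM in stimulated CLP animals, and overlapped between groups in both operations. The part of blood left in the tissue in the other lists was not tested.

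Apart from cardiac muscle, the lowest list medians were those of mesothelium, the lining of the lung surface, and of mast cells. Upk3b, a uroplakin of mesothelium, measured 261, 91.5, 101, 78.3 and 41.8 CPM in Sham, 40.9, 60.5, 54.2, 73.2 and 50.6 in Sham+VNS, 63.1, 85.6, 60.6, 77.8 and 95.1 in CLP and 39.2, 45.5, 37.3, 47.0 and 23.0 in CLP+VNS. Sham replicate 1 was far above all other libraries, and in CLP animals the groups did not overlap. Upk3b stood at -1.02 ± 0.24 with all libraries and at -0.76 without Sham replicate 1, and Msln, mesothelin, at -0.96 ± 0.26 and -0.70. Of the 9 tested mesothelial genes 6 were lower at an unadjusted p below 0.05, against 6.79% of all genes, with a median of -0.96. Without Sham replicate 1, 3 were lower, against 6.61% of all genes, and the median was -0.46. The summed list level ran over 872 to 1153 CPM in CLP and 572 to 708 CPM in CLP+VNS, and over 604 to 1726 and 738 to 932 CPM in Sham and Sham+VNS. The adipose, cardiac and nerve markers were also highest in Sham replicate 1, and their part in the sham values was not tested.

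Of 13 mast cell genes 8 were lower and 0 higher at an unadjusted p below 0.05, against 6.79% and 6.75% of all genes. The median was -0.86, with -0.73 in sham and -0.94 in CLP animals. Mcpt2, a mast cell protease, measured 5.86, 3.78, 2.47, 2.89 and 1.87 CPM in Sham, 1.05, 1.18, 4.53, 3.14 and 2.18 in Sham+VNS, 1.57, 3.25, 2.32, 7.11 and 5.96 in CLP and 0.672, 0.359, 1.37, 0.998 and 0.843 in CLP+VNS. The 5 CLP+VNS libraries all lay below the CLP libraries, and the sham groups overlapped. Its difference was -1.28 ± 0.38, with -0.48 in sham and -2.24 in CLP animals (edgeR interaction adjusted p = 0.535, unadjusted 0.0157). The tryptase Tpsb2 stood at -0.92 ± 0.32, the high-affinity IgE receptor chain Fcer1a at -0.86 ± 0.30 and the interleukin 33 receptor Il1rl1 at -0.46 ± 0.16. Without Sham replicate 1, 5 of 13 were lower, against 6.61% of all genes, and the median was -0.48. The summed level of the list overlapped between groups, with 301 to 466 CPM in CLP and 404 to 529.5 CPM in CLP+VNS. Its mean was higher with stimulation in CLP animals (467 against 409 CPM) and lower in sham animals (446 against 480 CPM). Kit, which endothelium also carries, gave 49.6% of the summed level and the transcription factor Gata2 34.7%.

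**Figure D4:**
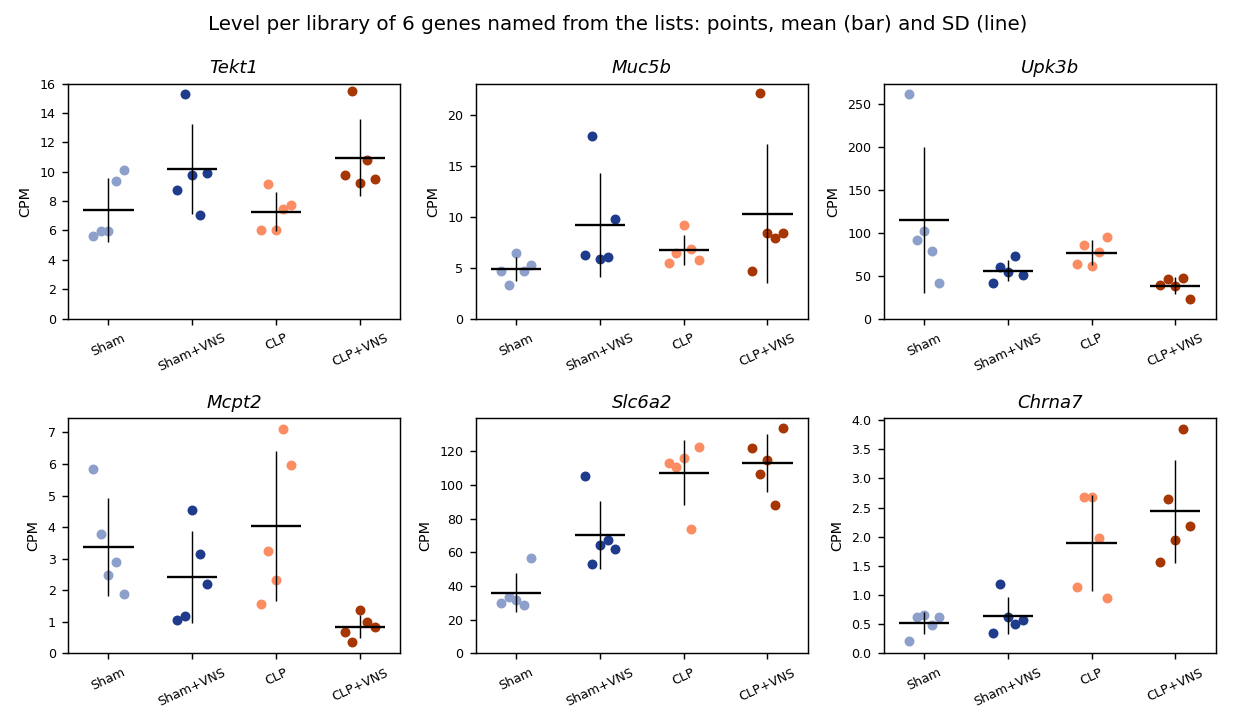
Level (y axis, CPM) of 6 genes named from the lists in each of the 20 libraries (points) by group (x axis), with the group mean (horizontal bar) and SD (vertical line), n = 5. Sham replicate 1 is far above the others for Upk3b, and 1 stimulated library in each operation is far above the others for Muc5b. Mcpt2 does not overlap between CLP and CLP+VNS. Slc6a2 has a wider fitted difference in sham than in CLP animals, and the interaction test did not tell them apart.

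Housekeeping and stress lists had small differences. Over all genes, 6.75% were higher and 6.79% lower at an unadjusted p below 0.05. All 22 ribosomal protein genes had negative differences, 19 of them in both operations, and 9 reached an unadjusted p below 0.05. But the median was -0.07, and reads can be shared with retained copies. Of 20 oxidative stress genes 4 were lower, among them the superoxide dismutases Sod2 (-0.30 ± 0.10) and Sod3 (-0.31 ± 0.09). Heat shock genes had 3 of 19 lower (median -0.09), or 5 without CLP+VNS replicate 1, and hypoxia and glycolysis genes 4 of 21 lower, such as Gapdh at -0.15 ± 0.06, and 2 higher, such as the oxygen-sensing Epas1 at 0.19 ± 0.07. Interferon response genes had 3 of 30 higher (10%) and 1 lower (3.33%), near the shares over all genes. Ifi27 stood at 0.38 ± 0.12 and Gbp2 at -0.21 ± 0.09. In the glucocorticoid response list Fkbp5, a chaperone that glucocorticoids induce, stood at 0.46 ± 0.20 and the receptor itself, Nr3c1, at -0.05 ± 0.03, with 2 of 19 higher and 1 lower; 1 was higher without Sham replicate 1, and 2 were lower without CLP+VNS replicate 1. Among circadian clock genes, which follow the hour of collection, 1 of 19 was higher and 2 were lower, with the repressor Bhlhe40 at -0.29 ± 0.10. The glucocorticoid and circadian counts also lay near the shares over all genes. Cdkn1a, a cell cycle inhibitor in the apoptosis list, stood at 0.38 ± 0.11. Oxidative phosphorylation had 0 of 21 at that level (edgeR).

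Over the 45 lists, 0 had a called member (edgeR). The medians of the 2 operations had 1 sign in 24 lists, 7 higher and 17 lower, and opposite signs in 21. The cell cycle list of dividing cells had a median of 0.29 in sham and -0.61 in CLP animals and -0.13 over both. Cardiac muscle, adipose and nerve lists had medians of -1.29, -0.82 and -0.51 in sham and 0.27, 0.09 and 0.01 in CLP animals, and they are lists in which Sham replicate 1 stood apart. Over both operations their medians were -0.88, -0.44 and -0.18 with all libraries, and -0.32, 0.48 and 0.01 without Sham replicate 1. Of the 10 tested adipose genes, 0 were higher at an unadjusted p below 0.05 with all libraries (edgeR), against 6.75% of all genes. Without Sham replicate 1, 4 were higher, against 5.6% of all genes, so the direction of that list turned with 1 library. Such medians over both operations average unlike values and do not describe a shared difference.

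**Figure D5:**
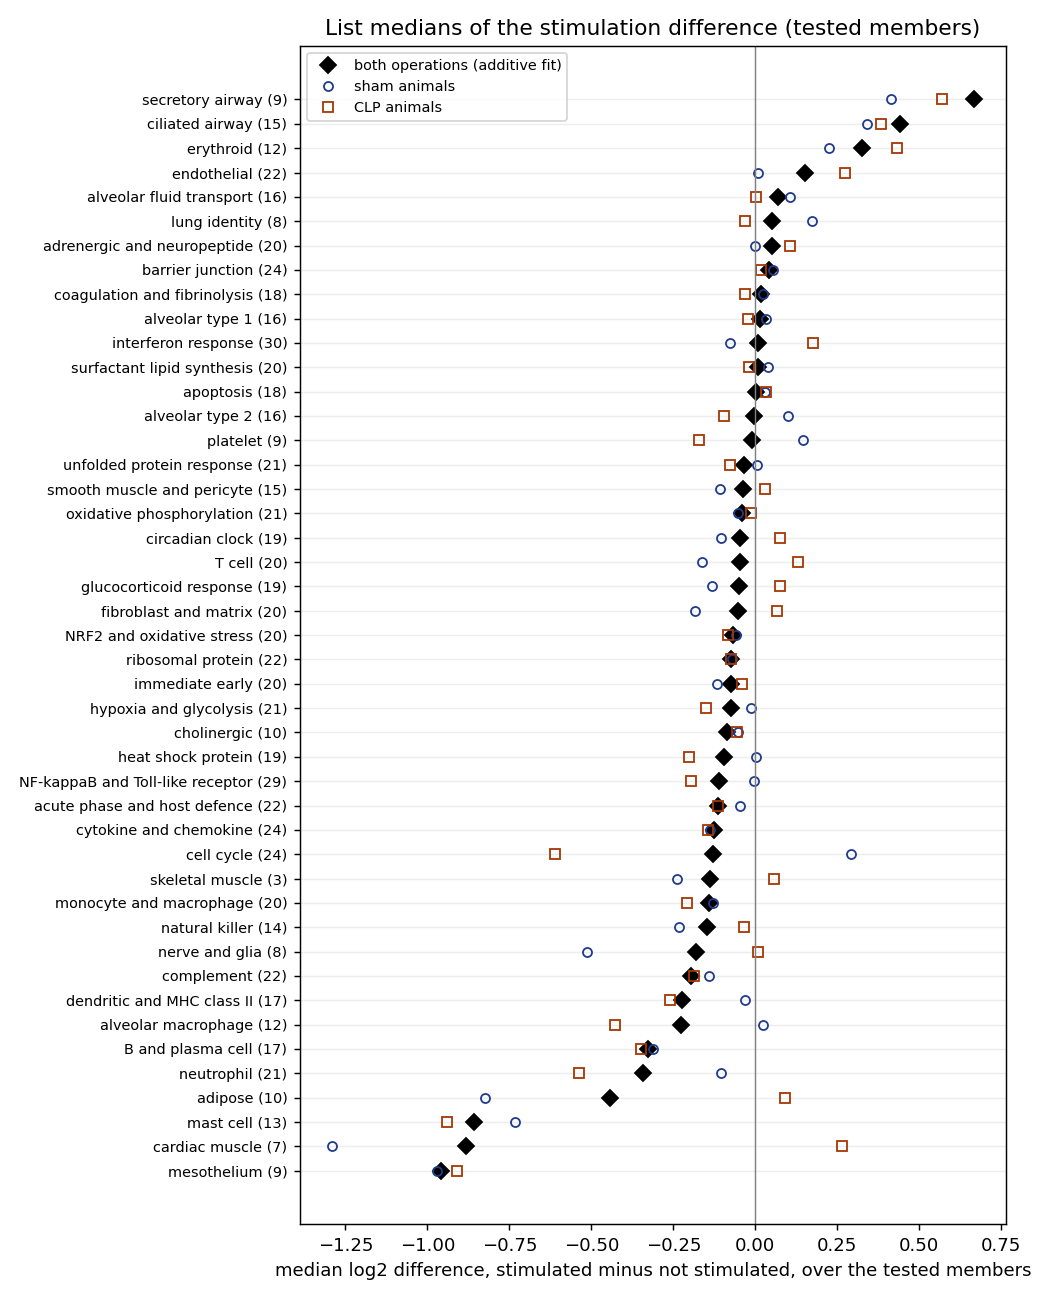
Median log2 difference between stimulated and unstimulated libraries (x axis) over the tested members of each of 45 lists (y axis, number of tested members in brackets), for the additive fit over both operations (black diamonds), sham animals (open circles) and CLP animals (open squares). Secretory and ciliated airway, erythroid, mast cell, B and plasma cell and mesothelium medians lie on 1 side of 0 in both operations; the cell cycle and cardiac muscle medians lie on opposite sides.

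Within single operations, stimulation gave 0 called genes in sham animals (edgeR; smallest adjusted p 0.176; 1185 genes, 8.01%, at an unadjusted p below 0.05, 3.92% higher and 4.09% lower; DESeq2 6) and 4 in CLP animals (0.027%), all lower. An unadjusted p below 0.05 was reached in CLP animals by 13% of genes, 6.35% higher and 6.67% lower. The 4 were Heatr6, which fell by 0.55 ± 0.09 on the log2 scale, Kmt5a, a histone H4 lysine methyltransferase, by 0.35 ± 0.06, Nckap1l, an actin regulator of blood cells, by 0.50 ± 0.08, and Tacc3, a mitotic spindle protein, by 0.72 ± 0.12 (adjusted p = 0.0421 for each, edgeR). In sham animals their differences were -0.17, -0.09, -0.04 and 0.01. The count of 4 was 0 with the libraries scaled by total count and 277 without CLP+VNS replicate 1. It was 0 without Sham replicate 5, Sham+VNS replicate 1 or 3, CLP replicate 4, 5 or 6, or CLP+VNS replicate 3, 5 or 8, and 1 or 2 without Sham replicate 1 or 4, CLP replicate 3 or CLP+VNS replicate 11. In sham animals the count was 2 without Sham replicate 3 and 1 without CLP replicate 5, which enters through the shared spread. The interaction, which asks whether the stimulation difference depends on the operation, called 0 genes (edgeR; smallest adjusted p 0.50; 1217 genes, 8.23%, at an unadjusted p below 0.05, 4.14% with a higher and 4.08% with a lower difference in CLP animals; DESeq2 6; 3 without CLP+VNS replicate 1), so it told apart no gene's differences in the 2 operations.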

How the data were processed

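RNA from the lungs of 20 rats had been sequenced, 1 library per animal, after poly(A) selection with a kit that marks the strand, per the labels' protocols. Reads were aligned to mRatBN7.2 per the submitters' processing notes; the aligner, the counting program, its use of strand and the annotation are not stated there or in the labels. Genes with near-identical copies and antisense partners are therefore uncertain. The authors deposited expected counts (estimated counts, 91.5% of gene values whole) and TPM values, scaled for length and library size, per the file headers. Groups and replicate numbers came from the labels.

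Counts of 19060 genes were rounded. No coordinates are given, since the reference table used for gene names (18800 identifiers matched) is of another assembly. Genes passing edgeR's filterByExpr (minimum count 10) numbered 14794. The additive model, operation plus stimulation, and a means model of the 4 groups used all 20 libraries, TMM scaling and robust quasi-likelihood tests (edgeR 4.0.16, limma 3.58.1, DESeq2 1.42.0, R 4.3.3), two-sided, with Benjamini-Hochberg adjustment over all genes tested; calls are at adjusted p below 0.05. Differences are log2, stimulated minus unstimulated, ± SE. The common biological coefficient of variation was 0.163, with 17 residual degrees of freedom. CPM uses TMM-scaled totals. The fit was tested on simulated data. Low genes (Il6, Il10, cholinergic members with a count in 5 or more libraries) were compared by an exact permutation of mean CPM over 63504 arrangements, adjusted over all 2950 genes too low for the model.

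Named genes were the 12 of each sign described with the results, up to 4 members of smallest p of each of 45 lists (822 members, 806 in the table, 731 tested), and a set of genes of the reflex given whatever their values: Chrna7, Ache, Bche, Jak2, Stat3, Nr3c1, Tnf, Il1b, Il6, Il10, Hmgb1 and Nfkbia. B3galnt1, Sox7, Heatr6, Kmt5a, Nckap1l, Tacc3, Sele, Apln, Kit and Gata2 are named as members of small counts or sums and were chosen after their values were seen. Some genes that the rule names are not reported here. The members and lists were chosen with earlier results of these data known. Lists were described by counts and medians without a set test. Alternatives were other scalings, filters, tools, designs, replicate blocks and leaving out each library.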

Additional observations from a re-analysis of the deposited data

Results flagged for a closer look

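In 19 of 144 combinations of a gene and a group, 1 library was set apart from the other 4, its gap to the nearest being a large share of the group's range; about 1 in 20 such groups, 5%, is set apart by chance. Sham replicate 1 was the highest for Upk3b (261 CPM), Gramd4 (45.4 CPM) and Il10 (0.706 CPM). CLP replicate 3 was the highest for Dgki (18.1 CPM), Il1b (77.6 CPM) and Calca (1.70 CPM) and the lowest for Adgre1 (47.3 CPM) among CLP libraries. CLP+VNS replicate 3 was the highest of its group for Tekt1 (15.5 CPM) and Muc5b (22.2 CPM) and the lowest for Emp3 (25.2 CPM). CLP replicate 5 was the lowest for Fam126a (14.4 CPM) and Slc6a2 (73.9 CPM). Sham replicate 5 was the highest for Slc6a2 (56.4 CPM) and Calca (1.73 CPM), and Sham replicate 3 for Il6 (0.218 CPM). Among Sham+VNS libraries, replicate 1 was the highest for Slc6a2 (105 CPM), replicate 2 for Calca (4.94 CPM) and replicate 5 for Tnf (3.17 CPM), and replicate 3 was the lowest for Adgre1 (5.08 CPM). No gene's stimulation difference was called as depending on the operation by the interaction test of edgeR (0 genes, 1217 at an unadjusted p below 0.05; DESeq2 6).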

How the results depend on the processing

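With DESeq2 the stimulation main effect called 55 genes (28 higher, 27 lower), all 55 of 1 sign in both operations. An additive fit averages both operations and so favours genes of 1 sign, and that agreement is a description, not a test. DESeq2 called 6 genes in sham animals, 144 in CLP animals and 6 for the interaction. With total count scaling 0 were called in CLP animals. When single libraries were left out, the main effect called 0 to 4 genes (0 to 4 higher, 0 to 2 lower, and 0 to 4 of 1 sign in both operations), the sham comparison 0 to 2, the CLP comparison 0 to 277 and the interaction 0 to 3. Genes with an unadjusted p below 0.05 in both operations then numbered 70 to 161 with 1 sign and 27 to 67 with opposite signs. The Il10 difference, near 0, turned positive on the log2(CPM + 0.1) scale (0.0921) and without single libraries, when it ran from -0.0545 to 0.0543 CPM. Without Sham replicate 1 the mesothelium median was -0.46 and the adipose median turned to 0.48. Of the lists, DESeq2 called 3 members and the fit without Sham replicate 3 called 1. The cause of these shifts was not tested.

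Whether the replicate numbers of the labels pair animals is not stated, and correlations between libraries cannot settle it. Same-numbered libraries correlated between -0.14 and 0.05 in sham and between 0.03 and 0.18 in CLP animals. Only CLP numbers 3 and 5 correlated best with their own number. With the replicate number as a block, 0 genes were called in the main effect and 0 in CLP animals, and 1251 had an unadjusted p below 0.05 (1209 with the block within operations). Scaling moved the median of all genes by under 0.01 (log2). Depth limits Il6, Il10 and the nicotinic receptors, which had few counts.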
